A study of Mus musculus with 6 samples.

Results

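The actin cytoskeleton genes described here are 35 genes grouped by function, which encode actin itself and proteins that sequester, polymerise, branch, cap, crosslink, contract or signal to actin filaments. All 35 were found by symbol among the 17369 genes of the deposited single-cell table. Their values were read in every library, genotype and deposited cluster.

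The data are from T helper 9 (Th9) cells, CD4+ T cells polarised in culture to make the cytokine IL-9. There were 3 libraries of Cblb-/- cells, named D, E and F here by their sequencing index, and 3 libraries of wild-type control cells, named A, B and C. Cblb encodes CBL-B, a ubiquitin ligase that restrains T cell activation. In both genotypes naive CD4+ T cells of mouse spleen were kept for 48 h with human TGFβ at 3 ng/ml, IL-4 at 20 ng/ml and an antibody against IFNγ at 20 µg/ml, then purified on beads that bind CD4. The cells were profiled with 10x Genomics 3' chemistry, which tags each transcript near its 3' end with a unique molecular identifier (UMI). Age, sex and strain of the mice were not given in the sources. No label states that the libraries of a genotype came from separate mice or cultures, so the p-values measure the spread between these libraries, which may be technical.

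Actin exists as a pool of monomers and as filaments that grow at one end and are dismantled at the other. Profilin and thymosins bind monomers, cofilin severs filaments, the Arp2/3 complex starts branches, capping proteins stop growth, and myosin II pulls filaments past each other. In T cells this machinery builds the contact zone with an antigen-presenting cell, and moves and stiffens the cell under the control of the GTPases Rac2 and Cdc42.

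The table held 27258 cells, 14503 Cblb-/- and 12755 wild type, in libraries of 3423 to 5666 cells. Median raw depth per cell was 35573 to 39628 UMIs, and median mitochondrial content 4.46% to 5.03%. Cblb itself had 18.4, 15.02 and 18.0 ppm in Cblb-/- libraries D, E and F, against 32.6, 31.1 and 30.9 ppm in wild-type libraries A, B and C; no label says which part was deleted, so tags outside it would still be counted. Here ppm is the corrected count of a gene per 1000000 of the library's sum, without scaling by gene length, since each transcript gives tags at 1 end. All 7 T cell markers were detected, with sums of 1406 to 1463 ppm in Cblb-/- and 1478 to 1517 ppm in wild-type libraries. Of the 4 Th9 markers, Il9, Irf4 and Batf were above 100 ppm in every library and Spi1 was at 0.0419 to 0.227 ppm in Cblb-/- and 0.00673 to 0.0751 ppm in wild-type libraries. Markers of other cell types were low. The sums were 5.18 to 9.04 ppm in Cblb-/- against 2.90 to 3.51 ppm in wild-type libraries for 4 B cell genes, nearly all of it Cd79b. For 6 myeloid genes the sums were 1.52 to 1.75 against 1.31 to 1.35 ppm, for 2 NK genes 0.122 to 0.203 against 0.134 to 0.229 ppm, and for 3 stromal genes 4.36 to 4.62 against 4.64 to 4.92 ppm. The sum of 5 mast cell and basophil genes was 3.17 ppm in Cblb-/- library F and 3.57 ppm in wild-type library C, and at most 0.65 ppm elsewhere. Of the platelet and red cell genes, Pf4 had 0.245 to 1.84 ppm in Cblb-/- libraries and was at 0 in the 3 wild-type libraries, and Hba-a1 was at most 0.029 ppm. Cd8b1 had 10.0 to 10.9 ppm in Cblb-/- and 5.61 to 7.11 ppm in wild-type libraries, and Cd8a at most 0.26 ppm in any library. The part of these genes in the results was not tested.

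Together the 35 genes had 31027, 27947 and 29522 ppm in Cblb-/- libraries D, E and F, against 32142, 30038 and 30830 ppm in wild-type libraries A, B and C. The ranges overlapped, because library D lay above wild-type libraries B and C. Tmsb4x, Actb, Actg1 and Tmsb10 made up 64.8% to 68.6% of this sum in every library.

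Of the 34 genes at or above a mean of 5 ppm, 11 were lower and 2 were higher in Cblb-/- cells (limma on log2(ppm + 1), adjusted p at most 0.05, Benjamini-Hochberg over 8475 genes). These counts are 32.4% lower and 5.88% higher, where 13.4% of all tested genes were lower and 11.0% higher. The 35 genes were chosen with earlier results of these data known, and all tested genes were not matched to them for level. These shares and the later ones are therefore given as a description. The falls lay in the monomer pool (Cfl1, Pfn1), in the Arp2/3 complex and its coronin partner (Arpc1b, Arpc2, Arpc5, Coro1a), in filament capping (Capg, Capzb, Capza1), and in Myh9 and Msn. The rises were those of Myh10 and Tln1. The median log2 difference of the 34 genes was -0.07, that of all tested genes -0.01. The values of the genotypes did not overlap for 14 of the 34 genes as lower and 5 of the 34 as higher in Cblb-/- libraries. Of all tested genes 25.6% and 19.7% did so, so the share of higher genes was smaller among the 34. When any 1 of the wild-type libraries was left out, 6 genes were called lower; Capg, Myh9, Cfl1, Capzb, Pfn1 and Coro1a passed the threshold in all 20 other settings tried. Coro2a, which had the largest ratio between genotypes of the 35, lay under the 5 ppm minimum and is described apart.

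**Figure D1:**
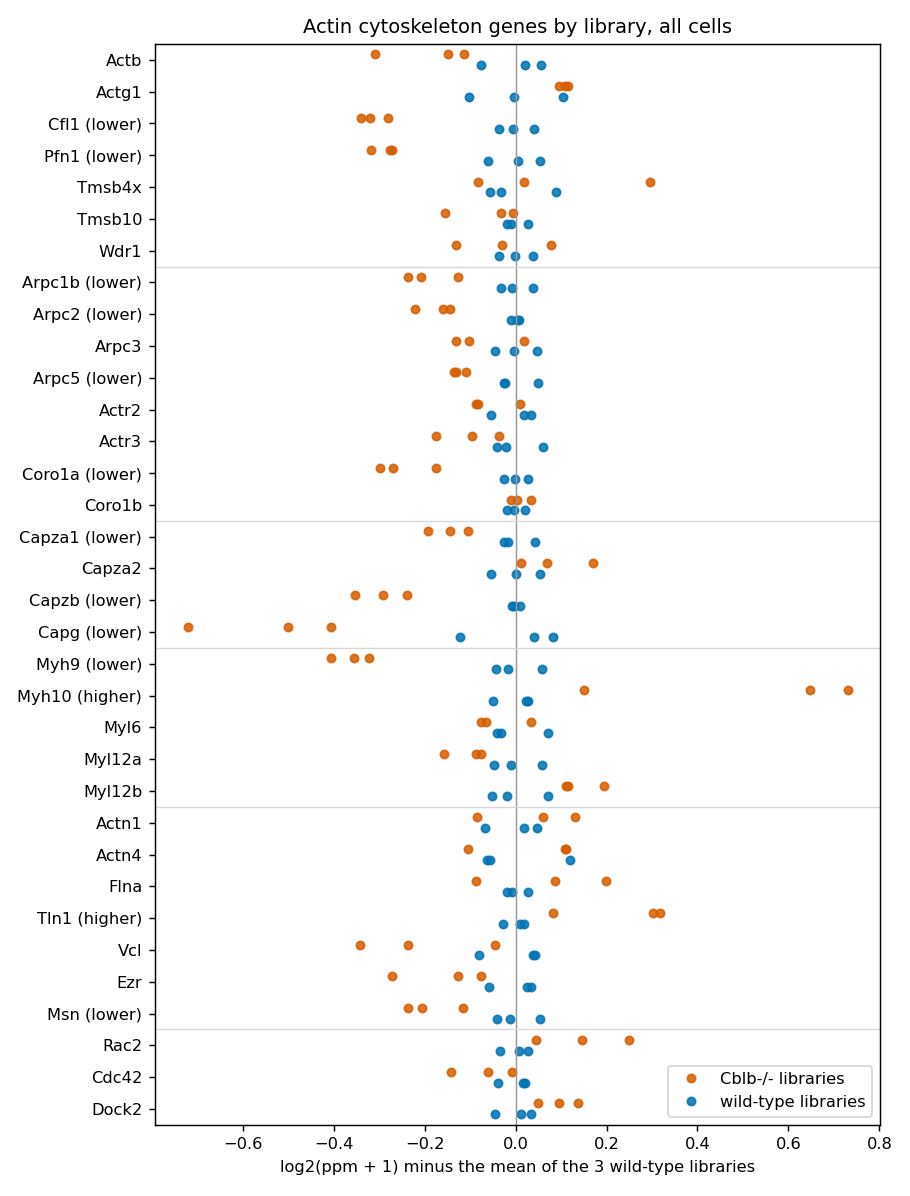
Expression of the 34 tested actin cytoskeleton genes in each library over all cells, as log2(ppm + 1) minus the mean of the 3 wild-type libraries; orange points are Cblb-/- libraries, blue points wild-type libraries, and grey lines part the groups by role. Points of Cfl1, Pfn1, Capzb, Capg and Myh9 lie apart to the left in all 3 Cblb-/- libraries, while those of Actg1, Tmsb10 and Coro1b overlap the wild-type points.

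In the monomer pool, Cfl1 and Pfn1 fell and the actins themselves did not pass the test. Cfl1 encodes cofilin, which severs filaments and returns monomers to the pool (chr19:5490455-5495201, plus strand, mm10). It had 1172, 1157 and 1206 ppm in Cblb-/- libraries D, E and F, against 1507, 1429 and 1459 ppm in wild-type libraries A, B and C. Every Cblb-/- library was below every wild-type one, at a log2 difference of -0.31 (limma, SE 0.04, adjusted p = 0.00235). Pfn1 encodes profilin, which loads monomers with ATP and feeds them to growing ends (chr11:70651850-70654644, minus strand). It had 1657, 1651 and 1603 ppm in Cblb-/- libraries, against 2076, 1919 and 2008 ppm in wild-type libraries. The groups were again apart, with a log2 difference of -0.29 (limma, SE 0.04, adjusted p = 0.00421).

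Actb, which encodes β-actin, had 6604, 5908 and 6765 ppm in Cblb-/- libraries, against 7429, 6942 and 7604 ppm in wild-type libraries. All Cblb-/- values were the lower ones, yet the log2 difference of -0.19 (SE 0.06) missed the threshold (limma, adjusted p = 0.0611). It passed in only 3 of 20 other settings. These were TMM scaling, median-of-ratios scaling and cells with an Il9 value of 0 (limma, adjusted p = 0.0414, 0.0379 and 0.0361). In the settings where it missed, adjusted p in limma reached 0.201. Actg1, which encodes γ-actin, had 4237, 4255 and 4198 ppm in Cblb-/- libraries, against 4222, 3922 and 3661 ppm in wild-type libraries. Here the groups overlapped, at a log2 difference of 0.11 (limma, SE 0.06, adjusted p = 0.192). Tmsb4x and Tmsb10, the thymosins that hold monomers in reserve, had log2 differences of 0.08 and -0.06, and Wdr1, a cofilin cofactor, of -0.03, with adjusted p of 0.354 to 0.748 in limma. Tmsb4x was highest in library D, at 8555 ppm, against 6583 to 7416 ppm in the other 5 libraries. Of the last 400 transcript bases, where tags fall, 11.97% of 50-base words of Actb and 78.9% of those of Tmsb10 also occur in another gene, so their counts are less certain.

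Promoter sequences are shown for Cfl1 and Pfn1, which fell together, and for the genes whose promoter holds a CArG box, the DNA element bound by serum response factor, a regulator that is itself switched on by a shrinking actin monomer pool. RefSeq promoters of build GRCm38.p6, 250 bases before to 50 bases after a start, were matched for 32 of the 35 genes; Actb, Coro1b and Rac2 had none in the table used. A CArG box, searched on both strands, was present for Actg1 (chr11:120348446-120348745, minus strand, box at -90), Myl6 (chr10:128492960-128493259, minus strand, box at -50) and Vcl (chr14:20929148-20929447, plus strand, box at -227). It is in capitals below. These are 3 of 32 genes (9.38%), against 1.81% of all 27025 genes with a promoter, and none is among the genes that fell or rose.
Actg1: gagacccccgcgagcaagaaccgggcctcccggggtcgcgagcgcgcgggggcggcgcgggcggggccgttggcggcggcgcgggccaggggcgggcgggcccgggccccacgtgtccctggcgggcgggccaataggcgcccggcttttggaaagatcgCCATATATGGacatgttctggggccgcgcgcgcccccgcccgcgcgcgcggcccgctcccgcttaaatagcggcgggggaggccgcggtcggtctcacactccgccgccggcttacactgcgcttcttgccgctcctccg
Myl6: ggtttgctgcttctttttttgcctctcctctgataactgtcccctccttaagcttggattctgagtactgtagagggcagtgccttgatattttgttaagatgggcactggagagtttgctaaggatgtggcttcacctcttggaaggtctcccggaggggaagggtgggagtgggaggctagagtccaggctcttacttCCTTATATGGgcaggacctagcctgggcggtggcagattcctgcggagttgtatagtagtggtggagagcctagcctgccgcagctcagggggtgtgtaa
Vcl: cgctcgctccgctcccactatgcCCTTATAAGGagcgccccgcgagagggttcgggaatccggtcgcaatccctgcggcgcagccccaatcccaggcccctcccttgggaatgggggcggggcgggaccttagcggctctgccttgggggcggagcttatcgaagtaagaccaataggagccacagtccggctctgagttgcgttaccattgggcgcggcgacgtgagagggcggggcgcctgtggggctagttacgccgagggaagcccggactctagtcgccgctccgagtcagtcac
The Cfl1 promoter (chr19:5490205-5490504, plus strand) and the Pfn1 promoter (chr11:70654601-70654900, minus strand) each held 2 copies of the GC box GGGCGG on either strand, in capitals below.
Cfl1: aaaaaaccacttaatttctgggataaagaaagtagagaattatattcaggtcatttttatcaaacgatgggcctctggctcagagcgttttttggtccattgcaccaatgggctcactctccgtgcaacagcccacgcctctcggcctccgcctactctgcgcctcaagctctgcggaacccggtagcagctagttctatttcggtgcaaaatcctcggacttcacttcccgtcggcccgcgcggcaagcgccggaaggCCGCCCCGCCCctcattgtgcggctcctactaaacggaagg
Pfn1: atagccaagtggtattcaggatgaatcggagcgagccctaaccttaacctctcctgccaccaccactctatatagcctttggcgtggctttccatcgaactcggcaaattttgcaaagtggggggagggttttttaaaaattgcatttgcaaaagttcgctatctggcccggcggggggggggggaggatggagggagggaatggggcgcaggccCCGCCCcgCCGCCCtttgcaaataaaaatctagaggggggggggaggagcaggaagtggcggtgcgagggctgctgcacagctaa
GGGCGG occurred for 28 of the 32 genes (87.5%), against 38.2% of all genes. The other motifs searched on both strands were CCGGAAG, found for 34.4% of the genes and 9.93% of all genes, CCAAT, for 31.2% and 41.1%, and TATAAA, for 6.25% and 15.7%. A match says only that these letters lie in the window. All genes here means the 27025 with a promoter, more than the 17369 genes of the single-cell table, without a filter on expression. No share was computed for the tested genes alone. Nothing particular to actin genes is therefore read from these motif shares, that of the CArG box included.

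Among the Arp2/3 subunits Arpc1b, Arpc2 and Arpc5 fell, by 0.13 to 0.19 on the log2 scale. Arpc1b, a haematopoietic form of the ARPC1 scaffold subunit (chr5:145114215-145130705, plus strand), had 357, 351 and 379 ppm in Cblb-/- libraries D, E and F, against 425, 404 and 411 ppm in wild-type libraries A, B and C. Arpc2, which helps anchor the complex on the mother filament (chr1:74236084-74268209, plus strand), had 487, 493 and 468 ppm in Cblb-/- libraries, against 546, 541 and 547 ppm in wild-type libraries. Arpc5 (chr1:152766542-152775597, plus strand) had 187, 190 and 187 ppm in Cblb-/- libraries, against 212, 202 and 202 ppm in wild-type libraries. No value of these 3 genes in a Cblb-/- library reached the lowest wild-type value. The log2 differences were -0.19 (SE 0.04) for Arpc1b, -0.17 (SE 0.04) for Arpc2 and -0.13 (SE 0.04) for Arpc5, with adjusted p of 0.0173, 0.0135 and 0.0459 in limma. Arpc5 missed the threshold in 9 of 20 other settings, among them TMM scaling, and all 3 missed it when any 1 wild-type library was left out. The remaining subunits Arpc3, Actr2 and Actr3, of which the last are the actin-related proteins that seed the new branch, had log2 differences of -0.05 to -0.10 and overlapping groups. Tags of Actr3 may be shared with the gene Gm8822, which holds 52.1% of its 3' words.

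Coro1a, the main coronin of blood cells, which binds filaments and Arp2/3 and is needed for T cell survival (chr7:126699773-126707787, minus strand), had 752, 704 and 690 ppm in Cblb-/- libraries D, E and F, against 865, 848 and 834 ppm in wild-type libraries A, B and C. The groups were apart, with a log2 difference of -0.25 (limma, SE 0.04, adjusted p = 0.00767). Its relative Coro1b had 40.1, 38.9 and 39.3 ppm in Cblb-/- libraries, against 39.7, 39.1 and 38.7 ppm in wild-type libraries. These values overlapped, but all of the 3' words of Coro1b also lie in the overlapping gene Ptprcap, so the counts of Coro1b are uncertain.

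Coro2a, a coronin also known as a subunit of a nuclear corepressor complex (chr4:46536937-46602202, minus strand), had the largest ratio between genotypes. It had 0.65, 0.517 and 1.47 ppm in Cblb-/- libraries D, E and F, against 7.37, 5.61 and 5.89 ppm in wild-type libraries A, B and C. The highest Cblb-/- library lay well below the lowest wild-type one, and against a Cblb-/- mean of 0.879 ± 0.516 ppm the wild-type mean of 6.29 ± 0.949 ppm was 7.15 times as high (SD, n = 3 each). The difference on the log2(ppm + 1) scale was -1.98. Where Coro2a reached the 5 ppm minimum in later comparisons it did so through its wild-type level, so its values are given here and further on as a description. In Cblb-/- libraries the cluster means stayed between 0.619 and 1.11 ppm, with cluster 2 at 0.836 ppm. The wild-type means depended on the cluster, at 16.0 ppm in cluster 2, 8.40 ppm in cluster 1, 6.22 ppm in cluster 5, 4.39 ppm in cluster 3, 2.74 ppm in cluster 4 and 2.55 ppm in cluster 0. Of neighbours in this order, the wild-type library values overlapped for clusters 1 and 5 and for clusters 4 and 0. Cluster 2 also held most Il9-high cells of the Cblb-/- libraries, as given further on.

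**Figure D2:**
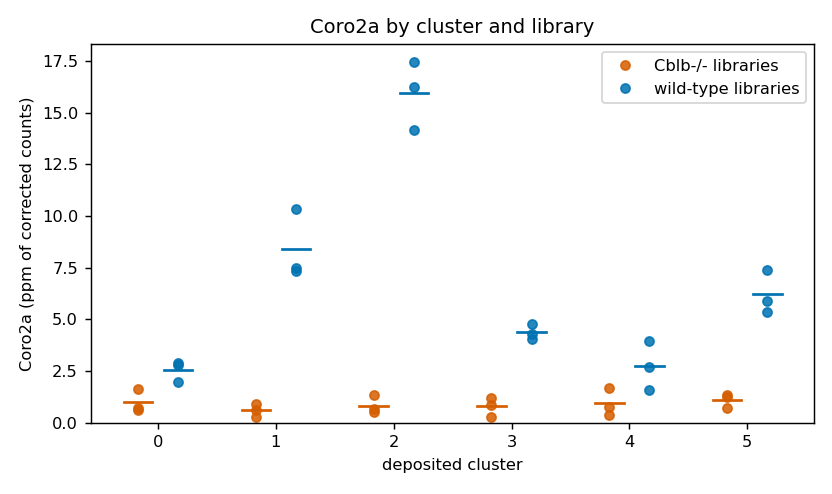
Coro2a level in ppm of corrected counts in deposited clusters 0 to 5; each point is 1 library, orange for Cblb-/- and blue for wild type, and bars are means of 3 libraries. In cluster 2 Cblb-/- libraries have 0.51 to 1.35 ppm, while wild-type libraries reach 14.2 to 17.5 ppm.

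Within clusters the log2 difference of Coro2a between Cblb-/- and wild-type libraries was between -0.86 in cluster 0 and -3.23 in cluster 2. Since this scale has a floor, smaller values in clusters of low wild-type level are partly set by the scale. The genes within 1 Mb of Coro2a on chromosome 4 were read as well, a choice made after its values were seen. There 16 genes averaged 1 ppm or more, Coro2a included. Of these 6 were lower and 4 higher in Cblb-/- libraries (limma, adjusted p at most 0.05). In the same fit 12.2% of all 10488 genes were lower and 11.9% higher. Besides those described next, Col15a1 (-0.54), Ncbp1 (-0.19) and Sec61b (-0.19) were lower and Aldh1b1 (0.37) and Tmod1 (0.30) higher. Trmo, a tRNA methyltransferase gene 147.5 kb away, had 1.65 ± 0.272 ppm in Cblb-/- and 9.06 ± 0.16 ppm in wild-type libraries (SD, n = 3 each), which is -1.93 as a log2 difference. Hemgn, 123.4 kb away, had 2.59 ± 0.701 against 0.695 ± 0.0897 ppm, a log2 difference of 1.07. Trim14, the nearest of the genes read at 0.8 kb, had 1.43 ± 0.0991 against 0.948 ± 0.102 ppm, a log2 difference of 0.32. Hemgn, Trim14 and Tmod1 averaged 1 ppm or more in Cblb-/- libraries alone, and Coro2a in wild-type libraries alone. All of them are among the 6 lower and 4 higher genes, so nothing is read from those counts. Tgfbr1, the gene of a TGFβ receptor chain 751 kb away, had 23.6 ± 3.91 against 36.6 ± 1.68 ppm, a log2 difference of -0.62 (limma, genes from 1 ppm, adjusted p = 0.00609). Also between Trmo and Coro2a lie Anp32b at -0.13 and Nans at -0.01, which did not pass in the same fit (limma, adjusted p = 0.0681 and 0.901). Whether these differences share a source with that of Coro2a was not tested.

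Capping genes included the largest fall among the 34 tested genes. Capg, which encodes a calcium-dependent cap of the gelsolin family (chr6:72544391-72562983, plus strand), had 273, 318 and 340 ppm in Cblb-/- libraries D, E and F, against 464, 414 and 478 ppm in wild-type libraries A, B and C. Capzb, the β chain of the capping protein dimer (chr4:139192899-139291818, plus strand), had 302, 279 and 291 ppm in Cblb-/- libraries, against 359, 356 and 354 ppm in wild-type libraries. Capza1, an α chain of the dimer (chr3:104822779-104864505, minus strand), had 95.5, 92.3 and 98.1 ppm in Cblb-/- libraries, against 104, 104 and 109 ppm in wild-type libraries. All 3 genes were below the wild-type range in every Cblb-/- library. The log2 differences were -0.54 (SE 0.09) for Capg, -0.29 (SE 0.04) for Capzb and -0.15 (SE 0.04) for Capza1, with adjusted p of 0.00568, 0.00319 and 0.0384 in limma. The other α chain gene, Capza2, had 144, 149 and 160 ppm in Cblb-/- libraries, against 148, 137 and 142 ppm in wild-type libraries, and did not pass (log2 difference 0.08, limma, adjusted p = 0.268). The call on Capza1 was lost in 9 of 20 other settings, and 36.5% of its 3' words also occur in Gm3608.

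Myosin II genes went both ways. Myh9, the heavy chain of non-muscle myosin IIA, the main form in T cells (chr15:77760587-77842175, minus strand), had 187, 198 and 194 ppm in Cblb-/- libraries D, E and F, against 245, 240 and 258 ppm in wild-type libraries A, B and C. Myh10, the heavy chain of non-muscle myosin IIB (chr11:68691559-68816632, plus strand), had 27.8, 18.3 and 26.2 ppm in Cblb-/- libraries, against 16.7, 15.8 and 16.7 ppm in wild-type libraries. Myh9 was lower in every Cblb-/- library (log2 difference -0.36, SE 0.04, limma, adjusted p = 0.00213) and Myh10 higher (0.51, SE 0.14, limma, adjusted p = 0.0319), with library E close to the wild-type level. Library E also had the smallest share of cells in the top 20% of summed hypoxia genes, 7.36%. The shares were 31.5% and 33.8% in libraries D and F and 16.8%, 10.9% and 21.7% in wild-type libraries A, B and C. Without these cells the Myh10 difference was 0.47. The part of the hypoxia genes in the Myh10 difference was not tested. The Myh10 call was lost without library A, B, C, D or F, with equal weight for every cluster and with no filter on low values. The log2 differences there were 0.40 to 0.52. Myl12a and Myl12b, regulatory light chains, had log2 differences of -0.11 and 0.14 (limma, adjusted p = 0.111 and 0.0635), with groups that did not overlap, and Myl6, the essential light chain, of -0.04 with overlap.

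Of the crosslinkers and membrane linkers, Tln1 rose and Msn fell. Tln1 encodes talin, which ties integrins to actin (chr4:43531519-43562691, minus strand). It had 145, 147 and 124 ppm in Cblb-/- libraries D, E and F, against 115, 118 and 119 ppm in wild-type libraries A, B and C. Every Cblb-/- value was above the wild-type range (log2 difference 0.23, SE 0.06, limma, adjusted p = 0.0341), but Tln1 passed in only 12 of 20 other settings. The call was lost with TMM scaling, median-of-ratios scaling and no filter on low values (limma, adjusted p = 0.0696, 0.0853 and 0.0533). It was also lost without library A, B, C, D or E, and the difference was 0.31 without F. Msn encodes moesin, which anchors the membrane to cortical actin (chrX:96096042-96168552, plus strand). It had 162, 152 and 149 ppm in Cblb-/- libraries, against 171, 174 and 183 ppm in wild-type libraries, with no overlap (log2 difference -0.19, SE 0.05, limma, adjusted p = 0.0246). Msn passed in 15 of 20 other settings, and its call was lost with equal weight for every cluster and without library A, B, C or F. Its relative Ezr, ezrin, had 111, 96.7 and 107 ppm against 120, 112 and 119 ppm, a log2 difference of -0.16 that missed the threshold (limma, adjusted p = 0.0831). Vcl, vinculin, which reinforces talin, was at -0.21 (limma, adjusted p = 0.125), and the crosslinkers Actn1, Actn4 and Flna at 0.03 to 0.07, all with overlapping groups.

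No member of the GTPase signalling group passed over all cells in limma, and 1 of 3 had an unadjusted p under 0.05. Rac2, the blood cell GTPase that turns on Arp2/3 (chr15:78559167-78572783, minus strand), had 448, 417 and 389 ppm in Cblb-/- libraries D, E and F, against 379, 384 and 368 ppm in wild-type libraries A, B and C. Dock2, the exchange factor that loads Rac (chr11:34226815-34783892, minus strand), had 68.5, 66.5 and 64.4 ppm against 60.3, 63.7 and 62.7 ppm. Both were higher in every Cblb-/- library, at log2 differences of 0.15 and 0.09 (limma, adjusted p = 0.0848 and 0.152). Cdc42, the GTPase of filopodia and polarity, was at -0.07 with overlapping groups.

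Members of a small family were also set against each other. For 9 pairs of genes related by family or shared complex, the log2 ratio within a library, which no scaling of libraries alters, was compared between genotypes. The groups did not overlap for 5 pairs, each at p = 0.1 in an exact two-sided permutation test, the smallest value that 3 against 3 libraries can give (0.18 adjusted over the 9 pairs). Of single genes, 25.6% did not overlap as lower and 19.7% as higher in Cblb-/- libraries; no such share was computed for other pairs, so nothing is read from the count of 5. Actb relative to Actg1 was 1.52 ± 0.117 in Cblb-/- and 1.87 ± 0.181 in wild-type libraries. Myh9 relative to Myh10 was 8.30 ± 2.20 in Cblb-/- and 15.1 ± 0.419 in wild-type libraries (SD, n = 3 each). Myl12a relative to Myl12b was 2.19 ± 0.0763 against 2.60 ± 0.0212, Capza1 relative to Capza2 0.632 ± 0.0293 against 0.743 ± 0.0352, and Coro1a relative to Coro1b 18.1 ± 0.591 against 21.7 ± 0.10 in wild type. All of these ratios were lower in Cblb-/- libraries. The groups overlapped for Tmsb4x to Tmsb10, Actn1 to Actn4, Ezr to Msn and Actr2 to Actr3, with differences of the mean log2 ratio between -0.0023 and 0.14.

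**Figure D3:**
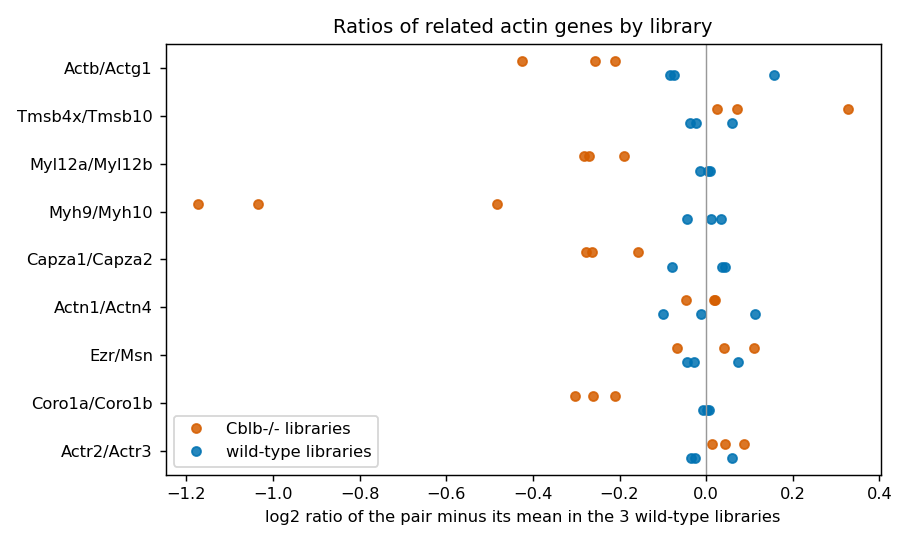
Log2 ratio of 9 pairs of related genes in each library minus its mean in the 3 wild-type libraries; orange points are Cblb-/- and blue points wild-type libraries. The Cblb-/- points lie left of all wild-type points for 5 pairs, and farthest for Myh9 to Myh10, where the mean log2 ratio differs by -0.90.

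The deposited clusters, numbered 0 to 6 by the authors, held different shares of the 2 genotypes, so the comparison was repeated within clusters 0 to 5. Cluster 6 had 24 cells and was not tested. The authors' clustering drew on these same cells, and whether it used the actin genes was not given in the sources. Of the tested genes, 10 were lower and 1 higher in Cblb-/- cells of cluster 0, where 12.8% and 9.06% of all tested genes were. In cluster 1 there were 8 lower and 1 higher (all genes 9.62% and 9.22%), in cluster 2 12 lower and 4 higher (11.7% and 8.39%) and in cluster 3 6 lower and none higher (3.85% and 4.54%). In cluster 4 there were 11 lower and 1 higher (7.47% and 5.33%) and in cluster 5 8 lower and 1 higher (4.68% and 4.9%). The 12 in cluster 2 include Coro2a, which reached the minimum of 5 ppm through its wild-type level alone.

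**Figure D4:**
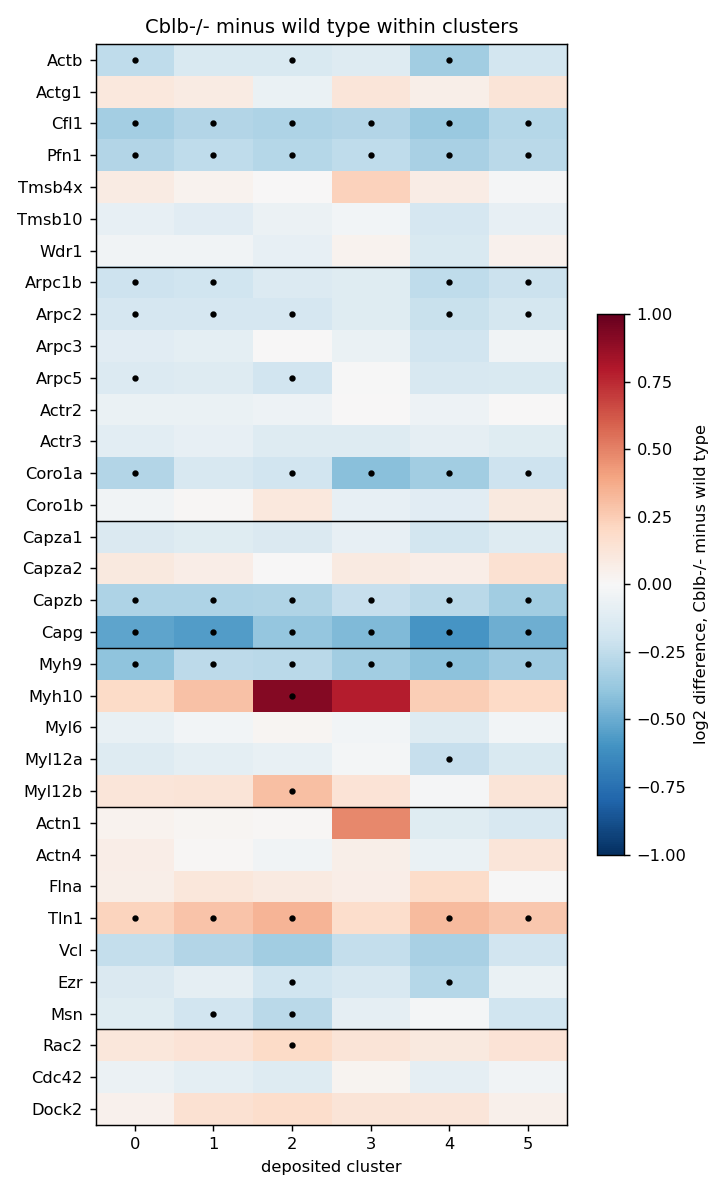
Log2 difference between Cblb-/- and wild-type libraries for 34 genes (rows, parted by role) within deposited clusters 0 to 5 (columns); blue is lower and red higher in Cblb-/- libraries, and a black dot marks an adjusted p of at most 0.05 (limma). Rows of Cfl1, Pfn1, Capzb, Capg and Myh9 are blue and dotted in all 6 clusters, and the row of Tln1 is red and dotted in 5.

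Cfl1, Pfn1, Capzb, Capg and Myh9 were lower in Cblb-/- cells of all 6 clusters. Their log2 differences were -0.37 to -0.28 for Cfl1, -0.32 to -0.25 for Pfn1, -0.35 to -0.23 for Capzb, -0.59 to -0.39 for Capg and -0.41 to -0.26 for Myh9. Coro1a and Arpc2 were lower in 5 clusters, Arpc1b in 4 and Actb in 3. Tln1 was higher in 5 clusters, at 0.17 to 0.34 over the 6. Myh10, Rac2 and Myl12b passed as higher in cluster 2 alone of the 6. In that cluster Myh10 had 15.17, 5.76 and 11.6 ppm in Cblb-/- libraries D, E and F, against 4.54, 4.22 and 6.05 ppm in wild-type libraries A, B and C, with library E inside the wild-type range. Leaving out library E raised the number of higher calls over the 6 clusters to 14, from 8 with all libraries, and leaving out a wild-type library cut it to 2 or 3.

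The difference between genotypes was itself compared between a cluster and the other cells of the same library. In cluster 0, 3 of 34 genes passed as more negative than elsewhere, Actb (by -0.10 on the log2 scale), Coro1a (by -0.08) and Myh10 (by -0.30), and none as more positive (2.58% and 1.48% of all genes). In cluster 1 the effect was more positive for Actb (0.07), Coro1a (0.12) and Myh9 (0.13) and more negative for none (1.82% and 1.1% of all genes). In cluster 2, 2 of 35 genes passed as more positive, Capg (0.15) and Myl12b (0.17), and 2 as more negative, Actg1 (-0.19) and Coro2a (-1.37), against 2.61% and 3.78% of all genes. Coro2a entered through its wild-type level, with Cblb-/- cells near 1 ppm in each cluster, so its value restates how wild-type cells vary between clusters. Cluster 4 had Actb (-0.16) and Tmsb10 (-0.11) as more negative and none as more positive (1.97% and 0.971%), and cluster 5 had Tmsb4x (-0.09) and none (0.0946% and 0.106%). In cluster 3 no gene passed in limma, where 0.0356% of all genes passed as more positive and 0.0237% as more negative, with 7 of 34 genes at an unadjusted p under 0.05. The effect on Actb thus ranged from -0.35 in cluster 4 to -0.13 in cluster 3.

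Cells that made much Il9 were then compared with cells that made none within each library, chosen by their Il9 value alone (at least 10 corrected counts, or 0). Il9-high cells numbered 990, 1083 and 1426 in Cblb-/- libraries D, E and F, and 596, 448 and 647 in wild-type libraries A, B and C. Cluster 2 held 52.6% to 62.1% of them in Cblb-/- and 37.1% to 41.1% in wild-type libraries, and none of the Il9-zero cells. Averaged over genotypes, 11 of the 35 genes were higher and 14 lower in Il9-high cells (limma, adjusted p at most 0.05 over 8522 genes), where 26.4% of all tested genes were higher and 35.1% lower. The 11 include Coro2a, which reached the minimum through its wild-type level. Of the crosslinkers and linkers 5 of 7 and of the monomer pool genes 4 of 7 were higher, while 4 of 5 myosin II genes and both Rac2 and Dock2 were lower.

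**Figure D5:**
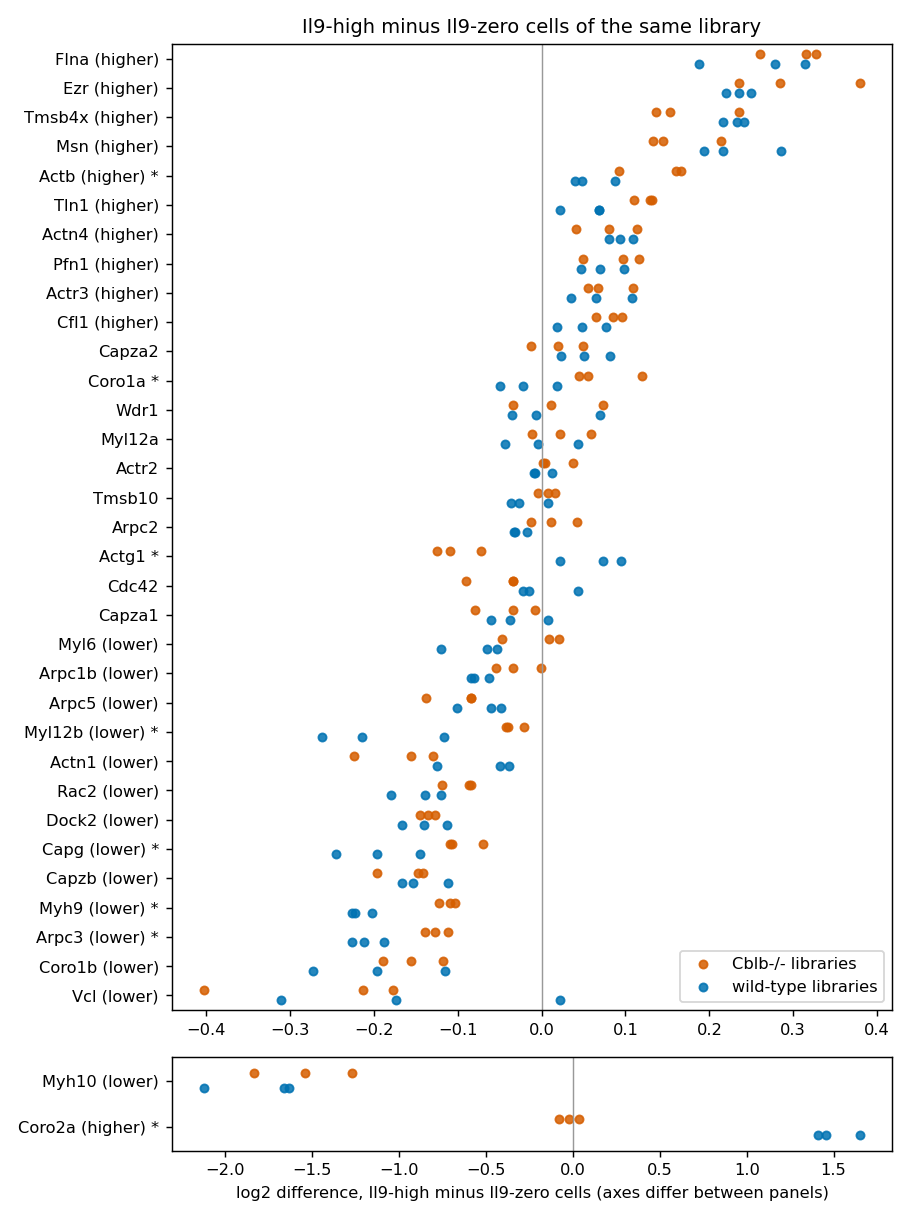
Log2 difference of each gene between Il9-high and Il9-zero cells of the same library; orange points are Cblb-/- and blue points wild-type libraries, labels in brackets give the call over all 6 libraries, and an asterisk marks genes whose difference depends on genotype. Flna, Ezr, Tmsb4x and Msn lie above 0 in all libraries, Myh10 lies between -2.12 and -1.27, and Coro2a, which entered through its wild-type level, splits by genotype.

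Flna, the gene of the crosslinker filamin A, was higher in Il9-high cells of all 6 libraries, by 0.26 to 0.33 on the log2 scale in Cblb-/- and 0.19 to 0.31 in wild-type libraries. Ezr was higher by 0.23 to 0.38 in Cblb-/- and 0.22 to 0.25 in wild-type libraries, and Tmsb4x by 0.14 to 0.24 and 0.22 to 0.24. Msn was higher by 0.13 to 0.21 and 0.19 to 0.29. The mean differences were 0.28 (SE 0.02) for Flna, 0.27 (SE 0.02) for Ezr and 0.20 for both Tmsb4x (SE 0.01) and Msn (SE 0.02). These linkers and the monomer binder were therefore higher in Il9-high cells whichever the genotype. Cfl1 and Pfn1, lower in Cblb-/- cells when all cells were pooled, were higher in Il9-high cells of all 6 libraries, by a mean of 0.06 and 0.08.

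Myh10 showed the largest difference. In Il9-high cells it had 15.7, 6.45 and 13.0 ppm in Cblb-/- libraries D, E and F and 4.38, 5.81 and 6.37 ppm in wild-type libraries A, B and C. In Il9-zero cells of the same libraries it had 39.1, 25.6 and 39.8 ppm in the Cblb-/- and 22.4, 20.1 and 22.3 ppm in the wild-type libraries. The log2 difference was -1.27 to -1.83 in Cblb-/- libraries and -1.63 to -2.12 in wild-type libraries, with a mean of -1.68 (SE 0.07, limma, adjusted p = 5.7e-12). Among Il9-zero cells alone the log2 difference of Myh10 between genotypes was 0.64. With equal weight for every cluster it was 0.41 (limma, adjusted p = 0.0927). The part of cell composition in the Myh10 difference between genotypes was not tested. Arpc3, Capzb, Capg and Myh9 were lower in Il9-high cells of all 6 libraries, by means of 0.15 to 0.17.

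The difference between Il9-high and Il9-zero cells depended on genotype for 8 genes, 6 in the positive and 2 in the negative direction (limma, adjusted p at most 0.05), where 4.45% and 6.23% of all genes did. Coro2a is among the 2, but entered through its wild-type level alone and is given as a description. In Cblb-/- libraries D, E and F it had 0.609, 0.536 and 1.40 ppm in Il9-high cells and 0.571, 0.624 and 1.43 ppm in Il9-zero cells. In wild-type libraries A, B and C it had 15.5, 14.9 and 13.1 ppm in Il9-high cells and 5.003, 4.08 and 4.29 ppm in Il9-zero cells. Il9-high cells thus differed from Il9-zero cells by -0.08 to 0.04 log2 units in Cblb-/- libraries and were higher in Coro2a in each wild-type library, and the mean log2 difference was -0.02 in Cblb-/- and 1.51 in wild-type libraries. With Cblb-/- libraries near 1 ppm in both states, the gap between genotypes restates the wild-type difference.

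Actg1 split in sign. Its Il9-high cells were lower than Il9-zero cells by 0.07, 0.11 and 0.12 on the log2 scale in Cblb-/- libraries D, E and F, and higher by 0.02, 0.10 and 0.07 in wild-type libraries A, B and C. The genotype term was -0.17 (SE 0.02, limma, adjusted p = 0.000112). For Actb the difference was larger in Cblb-/- libraries, at a mean of 0.14, than in wild-type libraries, at 0.06 (genotype term 0.08, limma, adjusted p = 0.0137). Coro1a had 0.07 in Cblb-/- and -0.02 in wild-type libraries (genotype term 0.09), Capg -0.10 and -0.20 (0.10), Myh9 -0.11 and -0.22 (0.11), Arpc3 -0.13 and -0.21 (0.08), and Myl12b -0.03 and -0.20 (0.16). Depth moved with these contrasts. In Cblb-/- libraries D, E and F, Il9-high cells had median totals of 40422.5, 36934 and 40260 raw UMIs and Il9-zero cells 42387, 36930 and 44185. In wild-type libraries A, B and C the medians were 42185, 43415 and 43494 for Il9-high and 37997.5, 39859 and 38252 for Il9-zero cells, so the gap ran opposite ways in the genotypes, except in library E. Among cells within 20% of the median depth, only Actg1 (-0.14, limma, adjusted p = 0.00437) and Arpc3 (0.11, limma, adjusted p = 0.045) of the 8 still passed, and Coro2a was under the 5 ppm minimum there. Fewer cells enter that fit. The genotype terms of the others were 0.16 for Myl12b (limma, adjusted p = 0.0503), 0.08 for both Actb and Coro1a (limma, adjusted p = 0.0888 and 0.185), 0.07 for Myh9 (limma, adjusted p = 0.366) and 0.03 for Capg (limma, adjusted p = 0.746). In the same order of genes, the terms over all depths were 0.16, 0.08, 0.09, 0.11 and 0.10. The part of depth in these terms was not tested. Without wild-type library C no positive genotype term passed, and without library A there were 2.

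Across cells of the same library, the corrected counts of some of these genes, taken as log2(value + 1), went together. The highest of 595 pairwise correlations was that of Cfl1 and Pfn1, with a Pearson r of 0.43 as the median over 6 libraries (0.38 to 0.48). Tmsb4x and Tmsb10 followed at 0.34 (0.29 to 0.41), then Pfn1 and Myl12a at 0.29 (0.25 to 0.33). The lowest were Actg1 and Capg at -0.17 (-0.22 to -0.10), Cfl1 and Dock2 at -0.13 and Coro1a and Myh10 at -0.10. The points share a library and a correction for depth, and are given as a description.

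Other genes of the actin system were read by lists, beside 11.0% of all tested genes called higher and 13.4% lower; in lists this short, 1 gene moves the share widely. Of 3 further Arp2/3 subunit genes 1 was lower, Arpc4 (log2 difference -0.25). Among 10 WASP and WAVE family genes, which switch on Arp2/3, 2 were higher and 2 lower: Wipf1 (0.49) and Cyfip1 (0.20) rose, Wasf2 (-0.22) and Hcls1 (-0.22) fell. Of 8 tested formins, which grow unbranched filaments, Inf2 (0.52) and Diaph3 (0.22) rose and Fmnl3 (-0.40) fell. Of 11 monomer and filament turnover genes 2 rose and 2 fell: the severing protein gene Gsn rose by 1.34, with 17.7 ppm in Cblb-/- and 6.30 ppm in wild-type libraries, Gmfg rose by 0.78, and Gmfb (-0.27) and Cap1 (-0.20) fell.

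Among regulators, 3 of 9 genes of GTPase-activating proteins and dissociation inhibitors were lower, against 13.4% of all tested genes, and none higher, against 11.0%: Arhgap15 (-0.43), Arhgdib (-0.34) and Arhgap25 (-0.22). Rhof (0.46) and Rhoq (0.39) rose and Rhoh (-0.23) fell among 6 further small GTPases, and of 13 exchange factors only Arhgef1 (-0.17) passed. Of 8 kinases and phosphatases of the cofilin and myosin pathways, Ssh1 (0.36) and Rock2 (0.22) rose and Ssh2 (-0.23) fell. Of 3 tested SRF and MRTF genes none passed in limma (adjusted p 0.0516 to 0.543, 1 with an unadjusted p under 0.05).

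Evl (0.32) of 2 Ena/VASP genes and Myo1g (0.62) and Myo1c (0.60) of 4 other myosins rose. Of 14 integrin adhesion genes 3 rose and 4 fell, against 11.0% and 13.4% of all tested genes, led by Skap1 (-0.41), Zyx (0.32), Rap1b (0.32) and Rap1a (-0.28); Rap1a and Rap1b, closely related GTPases, moved in opposite directions. Slk (0.21) rose and Slc9a3r1 (-0.25) fell among 6 ezrin family partners. Outside the actin system, Tubb6 (0.90) and Tubb2a (0.57) rose and Stmn1 (-0.53) fell among 11 tubulin and vimentin genes, and Sept7 (-0.29) fell among 5 septins. Of the comparison lists, hypoxia had 3 of 14 higher, mitosis 1 of 10 higher, Th9 markers 2 of 3 higher, and T cell markers 2 of 7 lower, Cd3e (-0.30) and Cd4 (-0.20); 1 of 1 tested CD8 gene, Cd8b1, was higher.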

How the data were processed

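Gene expression of single Th9 cells was read from 1 deposited table of 27258 cells and 17369 genes. The submitters' processing notes name Cell Ranger 3.0.2, Seurat 3.0.0 and the build mm10. The deposited score values are counts corrected for depth by sctransform, per the file headers, and a count model therefore did not apply. The same authors' table gives the raw UMI count of each cell, the percent of mitochondrial UMIs, the cluster and the genotype, per the file headers; depth ran from 15006 to 193440 raw UMIs per cell. Libraries were named by index letter, since the table gives no replicate number. Cells of a library are not replicates, and the 6 libraries were the units of every test.

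Corrected counts were summed per library, or per library and cluster with at least 50 cells, and scaled to ppm. Genes averaging 5 ppm or more were tested on log2(ppm + 1) with limma 3.58.1 (R 4.3.3, trended prior, two-sided) and Benjamini-Hochberg adjustment at 0.05 over all genes tested. This scale understates the change of low genes. Genotype effects in a cluster and the rest, and Il9-high and Il9-zero cells, were compared as differences within a library, with Il9 left out of the sums. Ratios of related genes were compared by exact permutation over all splits of 3 against 3 libraries, in Python 3.11.15. TMM factors came from edgeR 4.0.16. The fits were tested on simulated data with known changes. Barcodes shared with another library occurred in 152 cells (0.558%), and leaving these out was an alternative chosen after seeing the data. Doublets were not treated, since raw counts per gene were not used here. The lists and the 35 genes were chosen with earlier results of these data known. All 35 are accounted for; those called over all cells, or in a pair whose groups did not overlap, have values per library, and at most 4 called genes of each other list described are named. Lists of bundlers with tropomyosins and of regulators linked to CBL-B are not reported here. Coordinates are from GENCODE M21 on mm10; Myl12b has no single place in it.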

Additional observations from a re-analysis of the deposited data

Results flagged for a closer look

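For 11 of the actin genes the difference between Cblb-/- and wild-type cells itself differed between cell groups, by a limma test of that difference (adjusted p at most 0.05). Of all tested genes, 0.0946% to 3.78% passed in a given direction in clusters 0, 1, 2, 4 and 5. Between Il9 states 4.45% passed as positive and 6.23% as negative. No share was computed for all of these tests together, so nothing is read from the count of 11. Values are log2 differences, as the genotype effect in the first cell group minus that in the second. Between cluster 0 and the other cells these were Actb at -0.1048, Coro1a at -0.0824 and Myh10 at -0.3008. Between cluster 1 and the other cells they were Actb at 0.0693, Coro1a at 0.1196 and Myh9 at 0.1262. Between cluster 2 and the other cells they were Actg1 at -0.1877, Coro2a at -1.3655, Capg at 0.1463 and Myl12b at 0.1654. Between cluster 4 and the other cells they were Actb at -0.1633 and Tmsb10 at -0.1116, and between cluster 5 and the other cells Tmsb4x at -0.0941. Between Il9-high and Il9-zero cells they were Actb at 0.0809, Actg1 at -0.1654, Coro1a at 0.0915, Coro2a at -1.5289, Arpc3 at 0.0827, Capg at 0.0999, Myh9 at 0.1051 and Myl12b at 0.1629. Coro2a entered both of its comparisons through its wild-type level alone, with Cblb-/- libraries near 1 ppm, so its values restate how wild-type cells vary.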

How the results depend on the processing

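Over all cells the 2 higher calls were 1 with TMM scaling, 1 with median-of-ratios scaling, 1 with equal weight for every cluster and 0 with no filter on low values; limma gave 19 of 34 genes at an unadjusted p under 0.05. Among differences between Il9 states that depend on genotype, within 20% of the median depth there were 1 positive and 1 negative call, and with an Il9 value of at least 5 there was 1 negative call. The causes were not tested. Leaving out 1 library at a time gave 0 to 2 higher and 6 to 10 lower calls over all cells, 2 to 14 higher and 32 to 52 lower calls within clusters, 0 to 6 and 4 to 10 calls of genotype by cluster, 10 to 12 and 14 to 16 calls of Il9 state, 0 to 6 and 1 to 3 calls of Il9 state by genotype, and 5 to 6 pairs without overlap. Fewer libraries enter these fits. Small differences changed sign without 1 library: Tmsb4x (-0.0319), Actn1 (-0.0126) and Coro1b (-0.0025) without D, Wdr1 (0.0244) without E, Myl6 (0.0) without A, the ratio of Actn1 to Actn4 without B (0.0537) or F (0.0203), and that of Ezr to Msn without F (-0.0127). Coro1b also changed sign with median-of-ratios scaling (-0.0074) and equal cluster weight (-0.0064). No paired analysis was possible because the table ties no library to the replicate numbers in the labels. Genes such as Coro2a in Cblb-/- cells lie near 1 ppm, where depth limits what can be seen.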
